A study of Mus with 14 samples.

Results

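Mice reconstituted with Dnmt3a;Tnfr1KO marrow were compared with mice reconstituted with MxCre marrow, the control of the series, by single-cell RNA sequencing of blood progenitors, in a study of how the receptors of tumour necrosis factor act in Dnmt3a-mutant clonal hematopoiesis, the outgrowth of 1 mutant blood stem cell clone. The comparison used 6 of the 14 libraries, 3 per genotype, chosen by their genotype labels alone, and each library came from 1 mouse. The other libraries were 4 of genotype Dnmt3a and 4 of genotype Dnmt3a;Tnfr2KO. They entered the estimate of spread. Their levels are given beside some results but not all, and a result without them cannot be read as particular to Dnmt3a;Tnfr1KO. Because the genotypes compared differ in Dnmt3a and in the receptor together, their contributions to a difference cannot be told apart in this comparison. Mice that received Dnmt3a;Tnfr1KO marrow are called receptor-knockout mice below. The genotype is that of the donor cells, and the short name covers both changes, in Dnmt3a and in the receptor.

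Both groups went through the same serial transplantation. Donor cells marked by CD45.2 were mixed with CD45.1 competitor marrow and given to aged, lethally irradiated hosts, which received a single dose of poly(I:C) a month later. MxCre is a recombinase under an interferon-inducible promoter that poly(I:C) switches on, in blood cells and also in other tissues. The donor cells of the MxCre mice therefore carried the recombinase and went through the treatment, with no Dnmt3a or receptor allele in their label. Marrow of these hosts was passed to a second set of aged, irradiated hosts, which were harvested 20 weeks later, and Lin-Kit+CD45.2+ marrow cells, those of donor origin with surface Kit and without markers of mature lineages, were sorted. The labels state neither the Dnmt3a allele nor the part of the receptor gene that was deleted, nor which primary hosts supplied which mice. Mice of a group may therefore share a donor, in which case the p-values measure only the spread between these libraries.

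Dnmt3a encodes an enzyme that places methyl groups on previously unmethylated DNA, and its loss in blood stem cells favours self-renewal over differentiation. Tnfr1, encoded by Tnfrsf1a, and Tnfr2, encoded by Tnfrsf1b, are the receptors of tumour necrosis factor. Tnfr1 carries a death domain through which TRADD and RIPK1 lead to NF-kB activation or to cell death, whereas Tnfr2 lacks that domain and signals through TRAF2. NF-kB then induces its own inhibitors (Nfkbia, Tnfaip3) together with chemokines and survival genes.

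After filtering and removal of called doublets, 26039 cells of the 6 libraries were used, out of 67196 in the series. Total counts ran from 62416022 to 160599824 UMIs per library (unique molecular identifiers, each a counted mRNA molecule), and the median per kept cell ran from 15262 to 25685 UMIs. Dnmt3a;Tnfr1KO replicate 1 stood apart: 2545 of its 9724 barcodes held under 1000 UMIs, and 20.5% of its used cells fell in an unnamed cluster of very low depth led by Gm42418, against 0.201% to 2.15% in the other 5. No pair of the 6 libraries shared more than 13 cell barcodes. Gm10076 and Rps29, which separate the libraries of the series into sets, were high in both groups: Gm10076 lay at 690 to 1310 CPM (UMIs per 1e6 UMIs of the library) in MxCre and at 767 to 1814 CPM in Dnmt3a;Tnfr1KO, against 109 to 192 CPM in the Dnmt3a libraries. The 4 Dnmt3a;Tnfr2KO libraries were split, at 2594, 744, 206 and 146 CPM. The kit reads the 3' end of each mRNA, so a fold change below is the log2 ratio of summed UMIs per mouse (receptor-knockout over MxCre), and a gene is called at an adjusted p below 0.05 in edgeR's quasi-likelihood test.

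Tnfrsf1a mRNA was detected in every library labelled Dnmt3a;Tnfr1KO, and its level was not called different from the controls. Over all cells the MxCre mice had 42.8, 45.6 and 37.9 CPM and the receptor-knockout mice 42.3, 33.7 and 38.4 CPM (log2 fold change -0.14 ± 0.20 SE, edgeR adjusted p = 0.817). The ranges overlapped. Since the deleted part is not stated and reads come from the 3' end, this level neither checks nor contradicts the genotype label. In monocyte progenitor-like cells, Tnfrsf1a stood at 63.3, 63.9 and 57.2 CPM in MxCre and at 41.0, 38.7 and 41.4 CPM in the receptor-knockout mice, without overlap, and the difference was not called in edgeR (-0.61 ± 0.15, adjusted p = 0.282). It passed in DESeq2 (adjusted p = 0.0487) and in edgeR on the 6 libraries alone (adjusted p = 0.00503), and the other 9 alternatives gave 0.0729 to 1. Dnmt3a mRNA lay at 22.4, 23.1 and 28.2 CPM against 21.4, 22.1 and 22.5 CPM over all cells (adjusted p = 0.572). The other receptor gene, Tnfrsf1b, had means of 13.6 and 13.4 CPM (adjusted p = 0.975), whereas in the Dnmt3a;Tnfr2KO libraries it lay between 4.34 and 5.46 CPM. Tnfrsf1a lies on chromosome 6 at 125349723 to 125362483 (GRCm38).

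Stem and megakaryocyte progenitors were scarcer and monocyte progenitors more plentiful in the receptor-knockout mice, with the reservation that 3 mice against 3 cannot give an exact p below 0.1. Cells resembling blood stem cells and multipotent progenitors (HSC/MPP-like, a single cluster whose leading genes include Hlf, Ly6a and Mecom) made up 6.37%, 9.32% and 18.0% of used cells in the 3 MxCre mice. In the receptor-knockout mice they made up 0.648%, 2.34% and 1.49%. Every control mouse was above every receptor-knockout mouse, and the mean share was 9.74 percentage points lower (exact two-sided permutation p = 0.1, adjusted 0.433 over 13 classes). Without MxCre replicate 3 the difference was -6.35 points. At Leiden resolution 2 the mean shares were 16.2% in MxCre and 3.44% in the receptor-knockout mice. The receptor-knockout mice gave 40, 84 and 46 HSC/MPP-like cells and the controls 375, 263 and 804. In edgeR's test of cell numbers the class was lower by a log2 fold change of -2.91 ± 0.84 SE (adjusted p = 0.0435).

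Megakaryocyte progenitor-like cells, the precursors of platelets, took 13.2%, 14.8% and 25.2% of cells in MxCre and 3.19%, 7.55% and 5.39% in the receptor-knockout mice. The groups did not overlap, with a mean difference of -12.4 points (exact p = 0.1, adjusted 0.433; edgeR on cell numbers, adjusted p = 0.29). Monocyte progenitor-like cells showed the opposite order. They took 9.97%, 9.14% and 5.53% in MxCre and 23.3%, 13.04% and 23.4% in the receptor-knockout mice, again without overlap (11.7 points higher, exact p = 0.1, adjusted 0.433; edgeR adjusted p = 0.177). Granulocyte progenitor-like cells averaged 14.5% ± 4.30 (SD, n = 3) in MxCre and 20.2% ± 4.60 in the receptor-knockout mice with overlapping ranges, and erythroid progenitor-like cells 16.5% ± 5.40 and 9.64% ± 5.88, also overlapping. Early progenitor-like cells, with Cd34, Cd27 and Tespa1 among the leading genes, were level at 15.6% ± 3.69 and 15.0% ± 3.93. Mature B-like cells differed widely within the receptor-knockout group, at 0.437%, 11.2% and 4.29% of cells, against 0.408%, 0.531% and 1.05% in MxCre (edgeR adjusted p = 0.084). The sort was set to leave out cells with markers of mature lineages. Cells of unnamed clusters took 6.08% ± 1.29 in MxCre and 15.7% ± 11.7 in the receptor-knockout mice, without overlap (exact permutation p = 0.1). Without the low-depth cluster they took 5.71% and 8.36%, with overlap. B-lymphoid progenitor-like cells overlapped, with means of 0.0746% and 0.302%, but not at Leiden resolution 2 (0.109% and 1.43%).

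**Figure D1:**
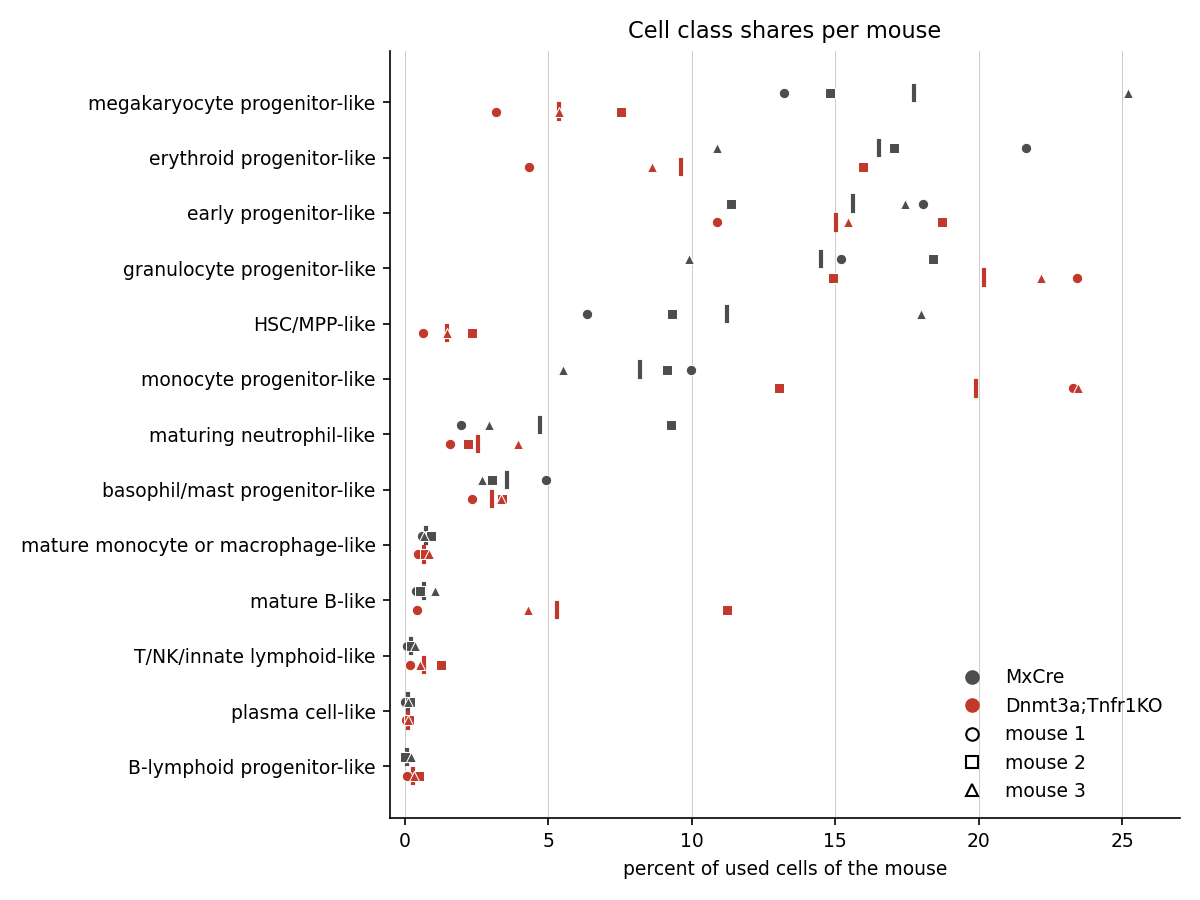
Share of used cells (percent, x axis) in each named cell class for the 3 MxCre mice (grey) and the 3 Dnmt3a;Tnfr1KO mice (red); symbols are single mice and the short bars are group means. The HSC/MPP-like and megakaryocyte progenitor-like rows have every red symbol below every grey one, and the monocyte progenitor-like row has every red symbol above.

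To express the balance of lineages, the number of megakaryocyte and erythroid progenitor-like cells of each mouse was divided by its number of granulocyte and monocyte progenitor-like cells and put on the log2 scale. It was 0.470, 0.208 and 1.23 in the MxCre mice and -2.63, -0.249 and -1.70 in the receptor-knockout mice. All controls lay above 0 and all receptor-knockout mice below it at this clustering; at Leiden resolution 2 the control mean was -0.00921 and the difference -2.31. The difference of means was -2.16, with SDs of 0.528 and 1.20 (exact two-sided permutation p = 0.1, the smallest that 3 against 3 allows). It stayed between -2.80 and -1.61 when any single mouse was left out. In the other groups of the series, the mean shares of HSC/MPP-like cells were 2.996% ± 1.80 in Dnmt3a and 2.92% ± 1.495 in Dnmt3a;Tnfr2KO (SD, n = 4 each), and those of megakaryocyte progenitor-like cells 5.52% ± 5.56 and 7.23% ± 3.26, all below the control means of 11.2% and 17.7%, as were the receptor-knockout means of 1.49% and 5.38%.

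Summed over all cells, 49 of 15635 genes were called, 0.313% of those tested, with 13 higher (0.0831%) and 36 lower (0.23%). The lower genes included markers of stem cells and platelets. Tie1, an angiopoietin-family receptor of endothelium and stem cells, had 7.77, 9.20 and 13.2 CPM in MxCre and 2.68, 2.86 and 2.81 CPM in the receptor-knockout mice (log2 fold change -1.85 ± 0.23, edgeR adjusted p = 0.0045). Pdzk1ip1, a stem cell marker, had 18.1, 19.06 and 28.9 CPM against 4.68, 8.80 and 6.35 CPM (-1.74 ± 0.33, adjusted p = 0.0489). Cd9, a tetraspanin of platelets and of megakaryocyte-biased stem cells, had 107, 119 and 136 CPM against 45.2, 62.2 and 55.1 CPM (-1.15 ± 0.21, adjusted p = 0.0386). None of these ranges overlapped, which the rule for choosing named genes required, and in the Dnmt3a libraries Tie1 spanned 2.55 to 4.75 CPM and Cd9 42.7 to 81.5 CPM. Also lower were the stress-response cofactor Nupr1 (-2.59 ± 0.49), the chondroitin sulphate enzyme Csgalnact1 (-1.61 ± 0.28) and Tnip3, a binding partner of the NF-kB inhibitor A20 (6.82, 8.83 and 18.7 CPM against 2.35, 2.74 and 2.08 CPM; adjusted p = 0.0377). Sums over all cells mix the share of a class with the RNA level within it, which cannot be told apart there.

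On the higher side stood Satb1, a chromatin organiser of lymphoid development, with 9.58, 13.4 and 12.2 CPM in MxCre and 24.1, 24.1 and 28.3 CPM in the receptor-knockout mice (1.12 ± 0.19, adjusted p = 0.032). Its groups did not overlap, and the Dnmt3a libraries spanned 18.4 to 35.7 CPM. The protein kinase A inhibitor Pkib rose by 1.07 ± 0.18, the Ras GTPase activator Rasa4 by 0.95 ± 0.17 and the mTORC2 component Prr5 by 0.74 ± 0.13 (edgeR adjusted p = 0.0318, 0.0356 and 0.0318). The muscle creatine kinase gene Ckm and the meiotic recombination gene Mnd1 are described with the genes that moved in many classes. The number of genes called over all cells depended on single mice: it was 99, 6 and 9 without MxCre replicate 1, 2 or 3, and 7, 15 and 7 without Dnmt3a;Tnfr1KO replicate 1, 2 or 3. Among the genes named for all cells, Ckm, Mnd1, Lrmda and Tie1 kept an adjusted p below 0.05 in every one of the 13 alternatives run.

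Platelet and megakaryocyte effector genes had the lowest median of the gene lists over all cells. Of 29 tested, 24 were lower in every receptor-knockout mouse than in every control, against 13.1% of all genes tested, and the median log2 fold change was -1.64 (0.01 over all genes). In edgeR 1 was called, Cd9, against 0.23% of all genes called lower (23 lower at an unadjusted p below 0.05, 10 called lower in DESeq2). The number called in edgeR was 3, 0 and 0 without MxCre replicate 1, 2 or 3 and 0 without any 1 of the receptor-knockout replicates. Cd9 lies beside the targeted gene on chromosome 6: it starts at 125460266 and Tnfrsf1a ends at 125362483 (GRCm38.p6). The von Willebrand factor gene Vwf had 5.36, 8.14 and 17.1 CPM in MxCre and 1.98, 2.46 and 2.04 CPM in the receptor-knockout mice. The platelet integrin gene Itga2b had 34.4, 44.5 and 58.2 CPM against 13.2, 18.9 and 18.0 CPM. Neither passed (edgeR adjusted p = 0.195 and 0.0748). Genes near Tnfrsf1a were listed only where called, so for Vwf and other uncalled members a part of DNA inherited with the allele was not tested. The 13 markers of the megakaryocyte class summed to 374, 481 and 802 CPM in MxCre and 112, 166 and 121 CPM in the receptor-knockout mice, moving with the class's share. The part of that share in the list's values was not tested. Among stem cell self-renewal genes, 15 of 31 were lower without overlap (median -0.85, none called in edgeR, 15 at an unadjusted p below 0.05 and 9 called in DESeq2). Without MxCre replicate 3 the median was -0.50, and without MxCre replicate 1, 3 genes were called in edgeR. Procr, the endothelial protein C receptor of stem cells, stood at 2.82, 4.90 and 8.38 CPM against 0.820, 1.53 and 0.641 CPM (adjusted p = 0.0588).

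The monocyte priming genes were placed the other way: 9 of 19 were higher without overlap, against 8.93% of all genes tested, with a median of 0.71 (none called in edgeR, 8 at an unadjusted p below 0.05 and 8 called in DESeq2). Irf8, the transcription factor that directs progenitors to the monocyte and dendritic fate, had 72.7, 86.0 and 43.8 CPM in MxCre and 192, 112 and 146 CPM in the receptor-knockout mice (1.15 ± 0.26, adjusted p = 0.0694). The chemokine receptor gene Ccr2, which lets monocytes leave the marrow, had 25.8, 23.5 and 16.8 CPM against 49.0, 32.7 and 43.4 CPM (adjusted p = 0.0739). Both were separated between groups without passing the threshold. The 11 markers of the monocyte progenitor class summed to 772, 1142 and 505 CPM in MxCre and 1332, 889 and 1310 CPM in the receptor-knockout mice, which overlap.

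**Figure D2:**
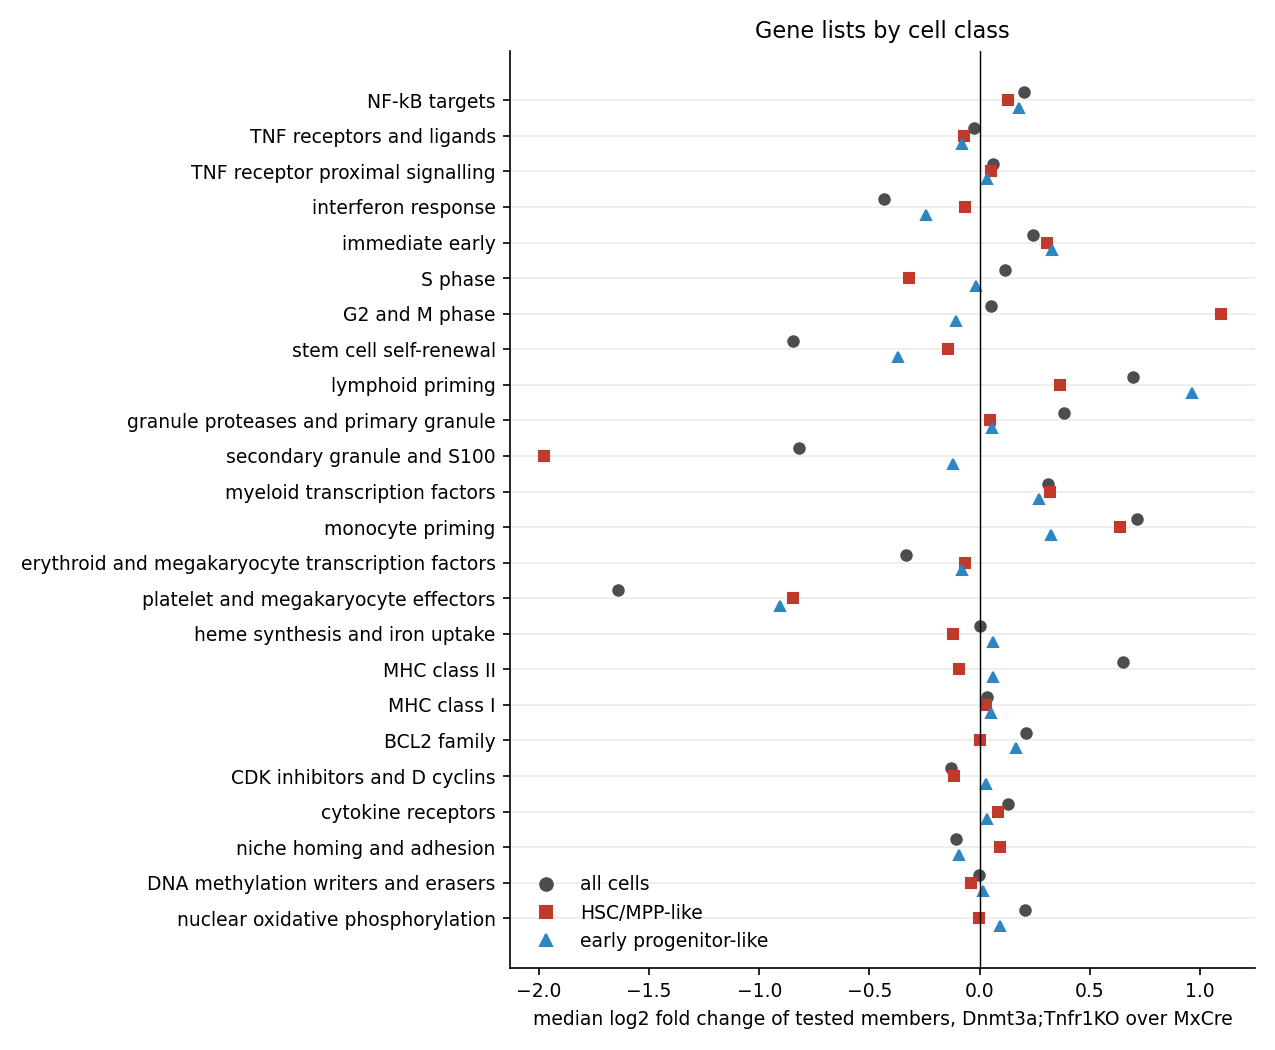
Median log2 fold change (x axis) of the tested members of 24 gene lists in all cells (grey circles), HSC/MPP-like cells (red squares) and early progenitor-like cells (blue triangles); the vertical line is 0, close to the median over all genes in each. Platelet and megakaryocyte effectors lie lowest of the lists in all cells at -1.64, and G2 and M phase genes lie highest of the lists in HSC/MPP-like cells at 1.09.

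Within HSC/MPP-like cells, genes of mitosis were mostly higher in the receptor-knockout mice, though the number called ran from 0 to 25 when single mice were left out. In this class 45 of 10061 genes were called, 0.447%, with 30 higher (0.298%) and 15 lower (0.149%). Of 45 tested genes of the G2 and M phase list, 8 were called higher and none lower, 29 were higher in every receptor-knockout mouse than in every control against 8.70% of all genes tested, and the median log2 fold change was 1.09 (close to 0 over all genes). Cenpa, the histone H3 variant that marks centromeres, had 117, 56.0 and 52.5 CPM in MxCre and 193, 227 and 203 CPM in the receptor-knockout mice (1.48 ± 0.27, adjusted p = 0.00903). Cdc20, the activator of the anaphase-promoting complex, had 40.4, 20.9 and 21.2 CPM against 58.0, 88.0 and 83.7 CPM (1.52 ± 0.25, adjusted p = 0.00278). Ccna2, cyclin A2, had 18.4, 10.95 and 7.56 CPM against 33.2, 36.7 and 44.5 CPM (1.67 ± 0.31, adjusted p = 0.00903). All 3 genes had their lowest receptor-knockout mouse above their highest control, MxCre replicate 1. The hyaluronan receptor and spindle protein gene Hmmr (1.56 ± 0.32), the cytokinesis regulator Ect2 (1.43 ± 0.29), the spindle checkpoint kinase Bub1b (1.32 ± 0.29), the midzone kinesin Kif23 (1.14 ± 0.25) and the spindle protein Ckap2 (1.12 ± 0.24) were the other called members.

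Mki67, the usual proliferation marker, had 63.7, 40.3 and 31.3 CPM in MxCre and 94.0, 67.5 and 65.9 CPM in the receptor-knockout mice (0.71 ± 0.25, adjusted p = 0.334), without overlap but not called. The topoisomerase gene Top2a overlapped between groups (-0.23 ± 0.26, adjusted p = 0.886). S phase genes pointed down: 15 of 42 were lower without overlap against 9.93% of all genes, with a median of -0.32. In edgeR 1 was called, against 0.149% of all genes called lower. The number called was 1, 0 and 0 without MxCre replicate 1, 2 or 3 and 0, 0 and 1 without receptor-knockout replicate 1, 2 or 3. It was 3 with the 6 libraries alone and 4 without the filter on low counts. The gene called in the main fit, E2f1, the transcription factor that drives entry into S phase, had 30.8, 29.3 and 26.4 CPM against 5.53, 10.3 and 16.0 CPM (-1.38 ± 0.29, adjusted p = 0.0291). The polymerase delta gene Pold1, outside the list and named after its values were seen, was also lower (38.97, 31.6 and 36.8 CPM against 16.6, 19.6 and 12.5 CPM; adjusted p = 0.0492). In early progenitor-like cells the G2 and M phase list had a median of -0.11 with none called in either direction (edgeR; 2 lower at an unadjusted p below 0.05, none in DESeq2), and Cenpa had 201, 212 and 221 CPM against 207, 181 and 225 CPM, with overlap.

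Flt3, Satb1 and Dntt, genes of lymphoid-primed multipotent progenitors, were called higher in the HSC/MPP-like cells. The cytokine receptor gene Flt3 had 16.3, 18.0 and 15.0 CPM in MxCre and 69.1, 55.5 and 58.8 CPM in the receptor-knockout mice (1.87 ± 0.39, adjusted p = 0.0249). Satb1 had 3.26, 7.09 and 4.44 CPM against 82.9, 38.4 and 26.7 CPM (3.25 ± 0.50, adjusted p = 0.0017). Dntt, the terminal transferase that adds bases at rearranging receptor genes, had 0.816, 0.322 and 0.959 CPM against 188, 12.8 and 16.0 CPM (6.08 ± 1.29, adjusted p = 0.0285), so its mean rests largely on replicate 1. These were 3 of the 12 tested genes of the lymphoid priming list, against 0.298% of all genes called higher in this class; the list's median was 0.36, and none was called lower. The number called was 1 without receptor-knockout replicate 1 or MxCre replicate 2 or 3, and without the filter on low counts the median was 0.12. The Dnmt3a libraries had 21.0 to 110 CPM of Flt3 and 17.1 to 68.5 CPM of Satb1 in this class.

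The chemokine genes Ccl9 and Ccl3 were called higher in the same cells. Ccl9 had 10.8, 12.2 and 5.88 CPM in MxCre and 88.4, 41.0 and 39.2 CPM in the receptor-knockout mice (2.49 ± 0.42, adjusted p = 0.00314). Ccl3, which NF-kB can induce, had 0.612, 1.93 and 1.92 CPM against 27.6, 8.54 and 10.7 CPM (3.10 ± 0.61, adjusted p = 0.017) and was the called gene among 33 tested NF-kB targets (0.447% of all genes were called in either direction). Both had no overlap, and both were highest in receptor-knockout replicate 1. The monocarboxylate transporter family gene Slc16a11 (0.966 to 2.16 CPM against 19.3 to 29.0 CPM, adjusted p = 0.0017) and the antiviral Trim5 (1.22 to 3.72 CPM against 5.53 to 33.8 CPM, adjusted p = 0.00267) were higher too. The sum of this class in receptor-knockout replicate 1 held 363791 UMIs. Values of a few CPM in it, as for E2f1, therefore rest on few UMIs.

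**Figure D3:**
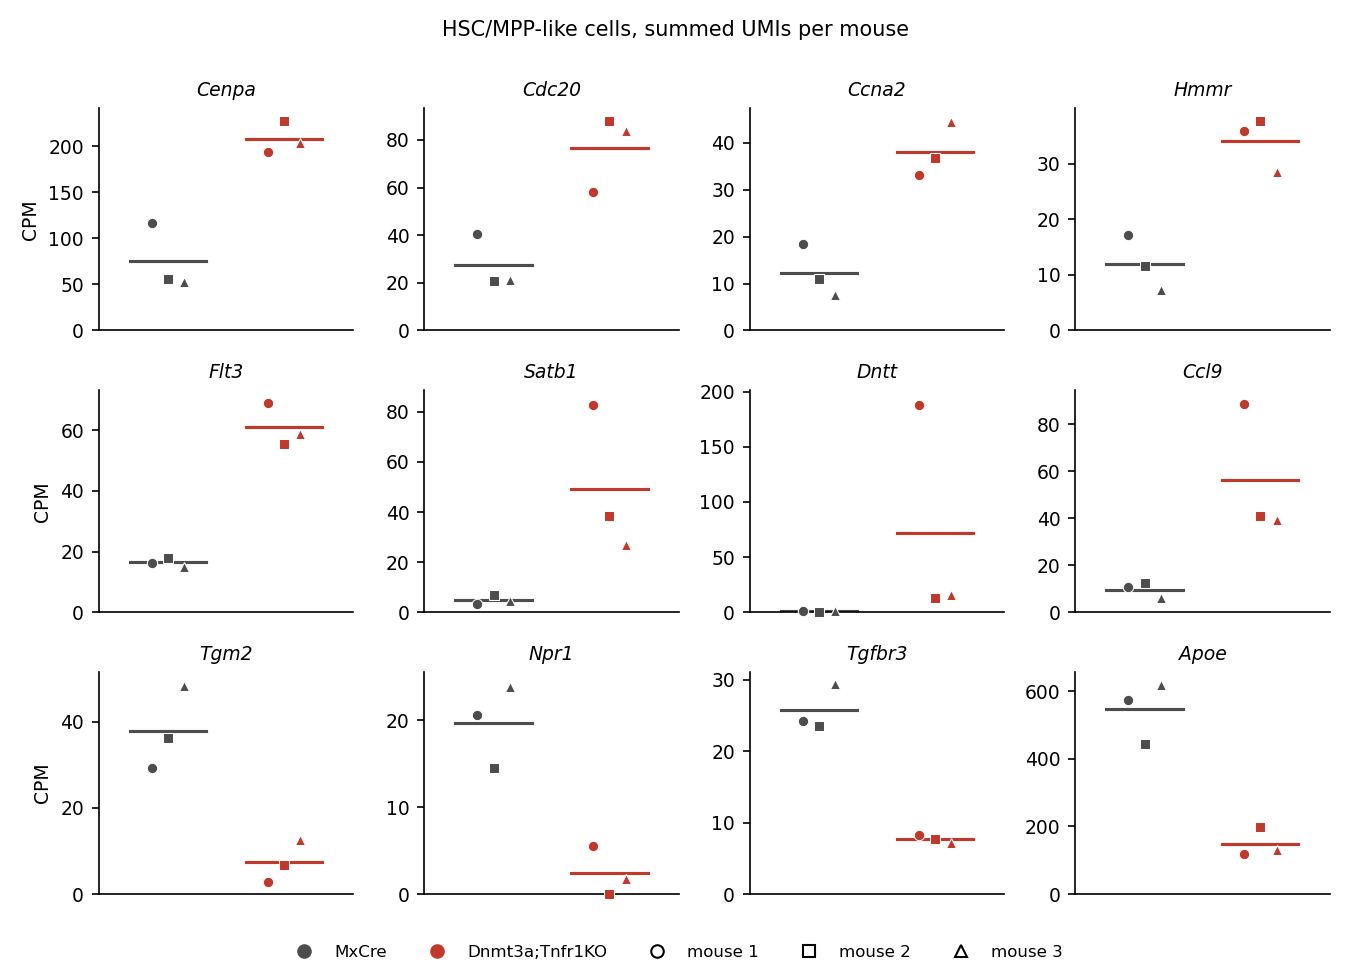
CPM (y axis, linear from 0) of 12 genes in UMIs summed over the HSC/MPP-like cells of each mouse, for MxCre (grey) and Dnmt3a;Tnfr1KO (red); symbols are mice and bars are means. In each panel the groups do not overlap; the mitotic genes of the top row are higher in red and the 4 genes of the bottom row lower.

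Of the lower genes of this class, Tgm2, tissue transglutaminase, had 29.2, 36.1 and 48.2 CPM in MxCre and 2.76, 6.83 and 12.5 CPM in the receptor-knockout mice (-2.31 ± 0.36, adjusted p = 0.0017). Npr1, the receptor of natriuretic peptides, had 20.6, 14.5 and 23.9 CPM against 5.53, 0 and 1.78 CPM (-3.73 ± 0.77, adjusted p = 0.0222). The apolipoprotein gene Apoe had 576, 446 and 620 CPM against 119, 197 and 130 CPM (-1.83 ± 0.24, adjusted p = 0.000274). The groups stood apart in all of them, which the rule for choosing named genes required of Tgm2 and Npr1. The TGF-beta co-receptor gene Tgfbr3, also named after its values were seen, had 24.3, 23.5 and 29.4 CPM against 8.29, 7.69 and 7.13 CPM (adjusted p = 0.0136), and the tetraspanin Cd63 fell by 0.76 on the log2 scale (adjusted p = 0.0365). Mtus2 had 26.3, 31.6 and 25.7 CPM against 2.76, 0 and 0 CPM (adjusted p = 0.000322), and was at 0 to 2.27 CPM in the Dnmt3a libraries as well.

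None of the 15 marker genes of the class itself was called in it, which does not show that their levels were equal. Hlf lay at 272, 342 and 298 CPM against 318, 445 and 501 CPM, and Mecom at 102, 123 and 124 CPM against 119, 108 and 112 CPM, overlapping in both cases. Of 30 tested self-renewal genes in this class, 2 were higher and 5 lower at an unadjusted edgeR p below 0.05, with 0 in DESeq2. Of 18 platelet and megakaryocyte effectors, 9 were lower and 0 higher at that level, and 1 was lower in DESeq2. Over all genes, 881 of 10061 passed that level in either direction. Receptor-knockout sums for this class rested on 363791, 1204715 and 586865 UMIs, against 3116895 to 8542345 UMIs in the controls, and the mean per cell was 9095 to 14342 and 10625 to 13614 UMIs. The number of called genes was 93, 28 and 18 without MxCre replicate 1, 2 or 3 and 25, 9 and 17 without receptor-knockout replicate 1, 2 or 3. For the G2 and M phase list the number called was 25, 3 and 1 and then 3, 0 and 1 in the same order, while its median stayed between 0.87 and 1.45 over the 11 alternatives. Ckm, Satb1, Mtus2 and Ccl9 kept an adjusted p below 0.05 in all 11, and the other called genes chosen by the naming rule in this class each lost it in at least 1. All of these fits used the clusters at resolution 1. The part of the mix of cells within the class in its values was not tested.

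In early progenitor-like cells 91 of 12529 genes were called (0.726%), with 28 higher (0.223%) and 63 lower (0.503%). Of the lower genes, the receptor kinase gene Tie1 had 12.5, 16.0 and 18.4 CPM in MxCre and 3.44, 4.16 and 4.20 CPM in the receptor-knockout mice (-1.98 ± 0.20, adjusted p = 0.000104). The adhesion molecule gene Esam had 9.66, 10.8 and 18.6 CPM against 3.20, 4.05 and 2.65 CPM (-1.96 ± 0.38, adjusted p = 0.0276). The transcription factor gene Sox6 had 6.71, 11.1 and 14.2 CPM against 1.72, 1.77 and 2.74 CPM (-2.36 ± 0.34, adjusted p = 0.00445). Every control exceeded every receptor-knockout mouse in each, which the rule for choosing named genes required of Sox6. The retinaldehyde dehydrogenase gene Aldh1a1, used in sorting stem cells by enzyme activity, fell by 2.63 on the log2 scale (adjusted p = 0.0489), and Pdzk1ip1, Apoe and Tnip3 fell by 1.45, 2.12 and 1.58 (adjusted p = 0.028, 0.0133 and 0.00445).

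By list, 2 of 30 tested self-renewal genes were called lower in these cells, against 0.503% of all genes. They were Fgd5, a marker of stem cells, at 0.699, 2.33 and 3.07 CPM against 0.164, 0.0570 and 0.0856 CPM, and Tal1, a blood-forming transcription factor, at 33.9, 37.1 and 38.5 CPM against 22.8, 27.3 and 22.95 CPM. Of the list 11 were lower without overlap against 8.55% of all genes. The list's median was -0.37, and -0.23 without MxCre replicate 3. The number called lower was 4, 1 and 0 without MxCre replicate 1, 2 or 3, 1, 1 and 0 without receptor-knockout replicate 1, 2 or 3, 1 with the replicate number as a block and 6 in DESeq2. Of 21 platelet and megakaryocyte effectors, 4 were called lower, against 0.503% of all genes. They were the thrombin receptor gene F2r (-1.16 ± 0.20), the ATP-gated channel gene P2rx1 (-1.21 ± 0.26), Cd9 (-0.80 ± 0.15) and Cd63 (-0.67 ± 0.14). Their list had a median of -0.91, and 14 members were lower without overlap. The number called in the list was 5, 0 and 0 without MxCre replicate 1, 2 or 3 and 0, 2 and 1 without receptor-knockout replicate 1, 2 or 3, and 10 in DESeq2. The 8 tested markers of the megakaryocyte class summed to 110 to 141 CPM in these cells in MxCre and to 68.3 to 75.2 CPM in the receptor-knockout mice, and their part in these values was not tested. The class is made of 2 clusters whose parts overlapped between groups: cluster 0 held 54.2% to 59.6% of it in MxCre and 47.8% to 55.4% in the receptor-knockout mice.

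Among the higher genes of these cells was Ighm. This gene of the IgM heavy chain had 11.4, 11.1 and 14.8 CPM in MxCre and 54.9, 32.9 and 66.1 CPM in the receptor-knockout mice (2.04 ± 0.35, adjusted p = 0.0144). In erythroid progenitor-like cells it lay at 1.27 to 1.75 CPM and 1.18 to 6.24 CPM. The markers of mature B cells, which carry Ighm, summed over all cells to 73.6 to 91.9 CPM in MxCre and 106 to 371 CPM in the receptor-knockout mice, and the 4 tested in early progenitor-like cells to 20.4 to 46.2 CPM and 13.7 to 34.2 CPM there, overlapping between groups. Ighm was the called gene among 18 tested lymphoid priming genes, against 0.223% of all genes called higher. Of that list 10 were higher without overlap against 6.70% of all genes, with a median of 0.96. No gene of that list was called without MxCre replicate 2 or 3 or receptor-knockout replicate 1 or 3, and 5 were in DESeq2. Satb1 (19.7, 28.5 and 25.3 CPM against 56.4, 55.2 and 63.8 CPM) and Dntt (2.37, 3.79 and 7.96 CPM against 71.8, 50.3 and 60.8 CPM) were fully separated but not called (adjusted p = 0.0769 and 0.241). Trbc1, a T-cell receptor constant gene, had no UMI in any control and 1.15, 2.28 and 5.48 CPM in the receptor-knockout mice, at least 44.6-fold higher when 3 UMIs are allowed over the control group. The T-cell factor gene Tcf7 rose as well, from 0.349, 0.438 and 0.419 CPM to 1.72, 1.71 and 2.57 CPM (2.33 ± 0.41, adjusted p = 0.0155). Both are markers of T and innate lymphoid cells, of which 2 of 8 tested were called and 5 were higher without overlap (0.223% and 6.70% of all genes). Cd3e, Cd3d and Cd3g were too low to be tested. The summed level of these markers overlapped between groups (328 to 474 CPM and 367 to 406 CPM). A sum follows its most abundant members, and the list holds Nkg7, also a gene of the granule protease list. It therefore cannot show changes at levels as low as those of Trbc1 and Tcf7. Also higher were the glutathione transferase family gene Mgst2 (1.20 ± 0.25) and the tetraspanin gene Tspan2 (1.13 ± 0.22). The count of called genes was 122, 20 and 23 without MxCre replicate 1, 2 or 3 and 28, 45 and 19 without receptor-knockout replicate 1, 2 or 3. Ckm, Lrmda and Sox6 kept their call in all alternatives.

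**Figure D4:**
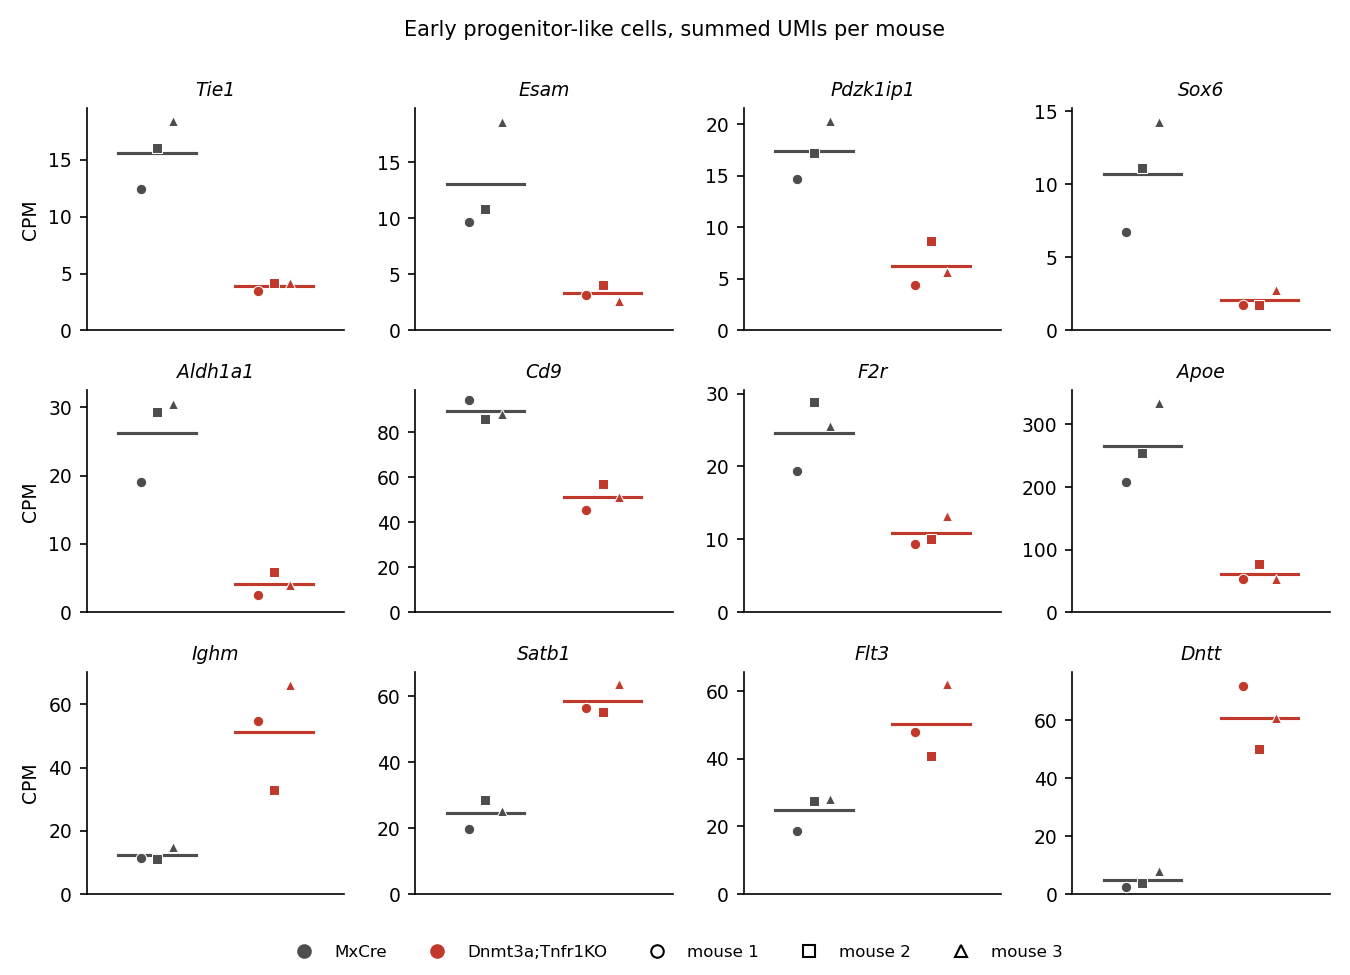
CPM (y axis, linear from 0) of 12 genes in UMIs summed over the early progenitor-like cells of each mouse, for MxCre (grey) and Dnmt3a;Tnfr1KO (red); symbols are mice and bars are means. The first 8 panels are lower and the last 4 higher in red; of the last 4, only Ighm passed the test.

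In megakaryocyte progenitor-like cells 32 of 11051 genes were called (0.29%), 21 higher (0.19%) and 11 lower (0.0995%), on 197, 271 and 167 cells in the receptor-knockout mice. The myosin light chain gene Myl10 had 15.3, 23.6 and 31.5 CPM in MxCre and 3.54, 4.66 and 5.54 CPM in the receptor-knockout mice (-2.34 ± 0.34, adjusted p = 0.00444). Cd1d1, which presents lipids to T cells, had 12.2, 12.98 and 10.2 CPM against 27.9, 26.3 and 29.5 CPM (1.25 ± 0.20, adjusted p = 0.00926). Neither overlapped. Tgm2 fell here too (-1.71 ± 0.28), the translocator protein family gene Tspo2 rose by 1.75 ± 0.34 and the potassium channel gene Kcnc1 by 1.76 ± 0.32. The count was 26, 12 and 13 without MxCre replicate 1, 2 or 3, and 19, 3 and 6 without receptor-knockout replicate 1, 2 or 3.

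Granulocyte and monocyte progenitor-like cells had few called genes: 18 of 12556 (0.143%) in the granulocyte class, 6 higher (0.0478%) and 12 lower (0.0956%), and 15 of 12270 (0.122%) in the monocyte class, 6 higher (0.0489%) and 9 lower (0.0733%). In the granulocyte class, the calcium-binding S100a11 had 1085, 1081 and 970.2 CPM in MxCre and 613, 593 and 662 CPM in the receptor-knockout mice (-0.75 ± 0.14, adjusted p = 0.0344). Apoe had 35.9, 33.5 and 24.2 CPM against 8.66, 11.2 and 9.07 CPM (-1.70 ± 0.28, adjusted p = 0.013), and Pink1, a kinase that marks damaged mitochondria, 13.7, 12.6 and 15.7 CPM against 27.2, 26.4 and 24.7 CPM (0.90 ± 0.16, adjusted p = 0.0344). None of the 3 overlapped, which the rule for choosing named genes required. The class was made of 3 clusters. Cluster 8 held 23.6%, 30.8% and 28.5% of its cells in MxCre and 14.9%, 17.2% and 21.98% in the receptor-knockout mice, and cluster 5 held 34.9%, 36.9% and 32.8% against 42.9%, 38.7% and 39.01%. Neither overlapped, and the part of this make-up in the values of the class was not tested. Granule protease genes had a median of 0.06 in early progenitor-like cells and 0.38 over all cells, with none called in edgeR (0 and 2 at an unadjusted p below 0.05, none in DESeq2). Without any single mouse the granulocyte count ran from 10 to 17 and the monocyte count from 6 to 14.

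Basophil/mast progenitor-like cells had 9 called genes of 9954 (0.0904%), 4 higher (0.0402%) and 5 lower (0.0502%), and 2 to 9 when single mice were left out, among them S100a11 (329, 353 and 311 CPM against 206, 182 and 213 CPM, adjusted p = 0.0425). Erythroid progenitor-like cells had 1 of 11158 (0.00896%): Zfp503, a zinc finger repressor, with no UMI in the 3 MxCre mice and 3.90, 4.23 and 3.87 CPM in the receptor-knockout mice, named after its values were seen. No gene was called in edgeR in maturing neutrophil-like, mature monocyte or macrophage-like and mature B-like cells (percent called 0; 164, 136 and 103 genes at an unadjusted p below 0.05, and 0 in DESeq2 in each). Those classes held 79 to 122, 26 to 29 and 27 to 403 cells per receptor-knockout mouse.

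A small set of genes moved in the same direction in class after class. Of 140 genes called in any class, 22 were called in at least 3 classes, and none was called in opposite directions. All classes came from the same mice, so calls of a gene in several classes are not independent repeats. Ckm was called higher in 6 of the 8 classes where it was tested, by 3.55 to 4.42 on the log2 scale. Over all cells it had 6.82, 10.1 and 6.37 CPM in MxCre and 188, 136 and 211 CPM in the receptor-knockout mice (4.53 ± 0.47, adjusted p = 0.00113). Ckm was also among the leading genes of the low-depth cluster, and without the cells of that cluster its fold change was 4.52 (adjusted p = 0.00116). The Dnmt3a libraries had 5.11 to 20.3 CPM of Ckm and the Dnmt3a;Tnfr2KO libraries 84.9 to 215 CPM. Mnd1, called in 4 classes, showed the same arrangement at a smaller size: 29.0, 26.9 and 27.4 CPM against 74.1, 61.0 and 58.5 CPM over all cells (1.21 ± 0.14, adjusted p = 0.00376), with 24.5 to 34.1 CPM in Dnmt3a and 48.2 to 63.3 CPM in Dnmt3a;Tnfr2KO. Eps8l1, a regulator of actin, was called lower in 6 of 7 classes, and over all cells had 3.45, 3.09 and 3.02 CPM against 0.0100, 0.0778 and 0.0784 CPM (adjusted p = 0.000147). In HSC/MPP-like cells it had 10.4, 12.2 and 10.9 CPM in MxCre and no UMI in any receptor-knockout mouse, at least 7.69-fold lower with 3 UMIs allowed over the group, and it was at 0 in the 4 Dnmt3a;Tnfr2KO libraries and at 5.27 to 13.1 CPM in Dnmt3a.

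Other genes of this set were set apart in Dnmt3a;Tnfr1KO from all 3 other groups. Lrmda, a gene of melanocyte differentiation, had 19.07, 19.3 and 15.9 CPM in MxCre and 2.24, 2.06 and 1.96 CPM in the receptor-knockout mice over all cells (-3.11 ± 0.16, adjusted p = 5.16e-07), against 11.96 to 17.7 CPM in Dnmt3a and 11.1 to 12.9 CPM in Dnmt3a;Tnfr2KO. It was called lower in 5 of 8 classes. The non-coding A230059L01Rik had 0.0143, 0.0336 and 0.0476 CPM against 3.87, 5.52 and 6.86 CPM (adjusted p = 0.022), at most 0.147 CPM in Dnmt3a and no UMI in Dnmt3a;Tnfr2KO. In granulocyte progenitor-like cells it had no UMI in the controls and was at least 84.7-fold higher in the receptor-knockout mice. Mtus2, in contrast, lay low in the other genotypes too. In early progenitor-like cells it had 23.4, 21.0 and 14.4 CPM in MxCre, 2.21, 0 and 0 CPM in the receptor-knockout mice, and no more than 1.32 CPM in any library of the other genotypes.

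**Figure D5:**
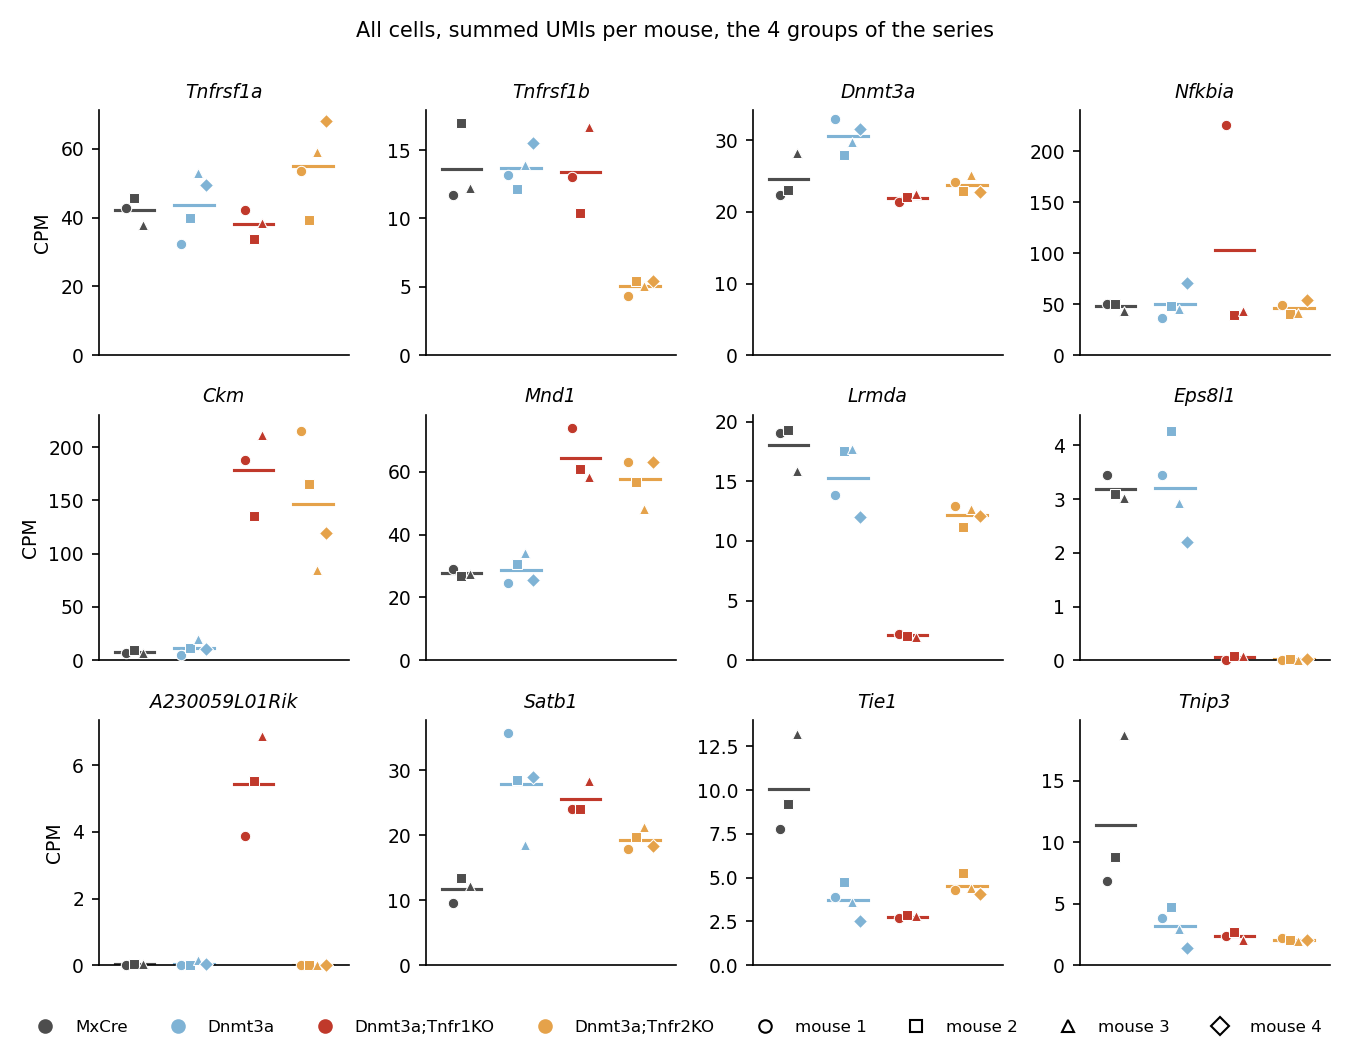
CPM over all cells (y axis, linear from 0) of 12 genes in each of the 14 libraries, by genotype; symbols are mice and bars are group means. Ckm and Mnd1 are high in Dnmt3a;Tnfr1KO and Dnmt3a;Tnfr2KO, Lrmda is lowest and A230059L01Rik highest in Dnmt3a;Tnfr1KO, and Nfkbia is high in Dnmt3a;Tnfr1KO mouse 1 alone.

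Of the 22 recurrent genes, 18 could be placed on GRCm38 through RefSeq, and 6 of these are on chromosome 7. Pira2 starts at 3836808, Eps8l1 at 4460638, Dnaaf3 at 4522933 and Isoc2b at 4844959 on that chromosome, with Ckm at 19411094 and Apoe at 19696244. Of this group Pira2, Dnaaf3 and Ckm were higher, and Eps8l1, Isoc2b and Apoe lower. On chromosome 3, Mnd1 (start 84087933) and Cd1d1 (86995834) were higher and Sh3d19 (85970805) lower. On chromosome 14, Zfp503, called higher in erythroid progenitor-like cells, starts at 21983959 and Lrmda spans 22019504 to 23056093. Near Tnfrsf1a itself, within 10 Mb on chromosome 6, 2 of 189 tested genes were called over all cells (Cd9 and Clec1a, both lower; 1.06%, against 0.313% of all genes) and none in any class but the early progenitor-like cells, where Cd9 was. Cd9 is the neighbour described above. Positions are given as a description, and no test of clustering was made. The labels give no strain background for the alleles, so at genes that lie close together an effect of the knockout and a difference in DNA inherited with an allele cannot be told apart.

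Of 47 NF-kB targets tested over all cells, Tnip3 was called lower, against 0.23% of all genes. Of the list 5 were higher and 6 lower without overlap (8.93% and 13.1% of all genes), and the median log2 fold change was 0.20. Without receptor-knockout replicate 1 that median was -0.09. No gene of the list was called without any 1 of the receptor-knockout replicates, without MxCre replicate 2 or 3, or with the replicate number as a block. Among 33 genes of receptor-proximal signalling none was called in edgeR (2 higher and 1 lower at an unadjusted p below 0.05, none in DESeq2), with a median of 0.06: Ripk1 had 24.96, 28.4 and 25.3 CPM in MxCre and 38.8, 27.4 and 27.9 CPM in the receptor-knockout mice, and Traf2 17.7, 14.4 and 14.5 CPM against 17.9, 19.0 and 15.0 CPM. Tnf itself had 2.64, 3.27 and 2.32 CPM against 6.65, 1.81 and 1.94 CPM (adjusted p = 0.802).

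Receptor-knockout replicate 1 differed from the other mice of its group in these genes. Its Nfkbia level was 226 CPM, against 39.7 and 43.0 CPM in replicates 2 and 3 and 43.6 to 50.5 CPM in MxCre. Its Tnfaip3 level was 9.87 CPM, against 2.59 to 4.20 CPM in the other 5 mice. Summed over the list, NF-kB targets reached 1247 CPM in that mouse and 745 to 854 CPM elsewhere, and immediate early genes 1700 CPM against 805 to 1161 CPM. The same mouse was high within HSC/MPP-like cells (1606 CPM of NF-kB targets against 1055 to 1251 CPM) and within early progenitor-like cells (1316 CPM against 764 to 803 CPM). It is also the library with many low-count barcodes, and the relation between these was not tested.

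Interferon response genes lay lower over all cells, with 23 of 43 below every control, against 13.1% of all genes, and a median of -0.44, yet none was called in edgeR (17 lower and 1 higher at an unadjusted p below 0.05, 8 lower in DESeq2). Oasl2, an oligoadenylate synthetase-like gene, had 6.63, 7.34 and 7.39 CPM in MxCre and 3.73, 4.31 and 3.01 CPM in the receptor-knockout mice (-0.95 ± 0.21, adjusted p = 0.0715). The summed level of the list, which follows its few most abundant members, overlapped between groups at 2179 to 2635 CPM and 2191 to 2738 CPM. In HSC/MPP-like cells 5 of 41 were lower without overlap, near the 9.93% of all genes there, and the median was -0.07. In early progenitor-like cells 11 of 41 were, against 8.55% of all genes, and the median was -0.24, with none called in either class (edgeR; 5 lower in the first, 7 lower and 1 higher in the second at an unadjusted p below 0.05, none in DESeq2). MHC class II genes had a median of 0.65 over all cells with 3 of 10 higher without overlap, against 8.93% of all genes, and none called (edgeR; 1 at an unadjusted p below 0.05, none in DESeq2). The markers of mature B cells, which carry these genes, summed to 73.6 to 91.9 CPM in MxCre and 106 to 371 CPM in the receptor-knockout mice, and their part in that list was not tested.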

How the data were processed

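The deposited matrices hold UMI counts per gene and cell barcode, not normalized, made by the authors with Cell Ranger 6.0.0 (bcl2fastq 2.20.0.422, build GRCm38/mm10), per the submitters' processing notes. Each lists 32285 genes. A barcode counted as a cell from 1000 UMIs and 500 genes upward if mitochondrial genes gave less than 10% of its UMIs. Doublets were scored per library by how many of a cell's neighbours were artificial cell pairs, called at 0.8% per 1000 cells, and left out after clustering. Cells of all 14 libraries were clustered on 2000 variable genes (without mitochondrial, ribosomal and predicted genes, Xist, Y-linked genes, Dnmt3a, Tnfrsf1a and Tnfrsf1b), 30 principal components and 20 neighbours by Leiden (leidenalg 0.10.2) at resolution 1, giving 32 clusters. A cluster was named class-like when its mean marker z-score exceeded 0.5, at least 2 own markers were among its 10 leading genes with no other class having more, and at least 3 markers were detected in 10% of its cells; 6 clusters stayed unnamed. That naming rule was set after the matrices were seen, and the members and lists were chosen with earlier results of these data known.

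UMIs were summed per mouse over all used cells and per class (a library needed 20 cells of the class, so MxCre replicate 2 is missing from mature B-like cells) and tested with edgeR 4.0.16 (R 4.3.3; two-sided quasi-likelihood test, TMM, filterByExpr, Benjamini-Hochberg adjustment, all 14 libraries and 4 groups in a model without covariates). The SE is the absolute log2 fold change over the square root of F. CPM use TMM-scaled totals, whereas Gm10076, Rps29 and the sums of class markers over all cells use plain totals. Named genes were the 10 called genes of largest fold change in each direction over all cells and 5 in each class, whose groups did not overlap and of which 1 reached a mean of 10 CPM, leaving out predicted, Rik, ribosomal and mitochondrial genes, plus up to 6 called members per list, called genes near Tnfrsf1a, and the targeted genes; others are said to be named after their values were seen or were counted in a list. Shares were tested by exact two-sided permutation over mice. DESeq2 1.42.0, a fit of the 6 libraries alone, no low-count filter, a block, each replicate left out, doublets kept, a 2000-UMI minimum and resolution 2 were alternatives, as was leaving out the low-depth cluster, chosen after seeing the data. The fit was tested on simulated data. Replicate libraries differed by far more than counting noise. Intervals of single counts are not given, and floors of 3 UMIs cover counting error only. Some items are not reported here.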

Additional observations from a re-analysis of the deposited data

How the results depend on the processing

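The differences between groups in the log2 ratio of lineages and in the HSC/MPP-like, monocyte and megakaryocyte progenitor-like shares kept their sign in every alternative run; with 3 mice a group no exact p could pass, so this says nothing on significance. Only the HSC/MPP-like share passed in another test, on numbers of cells in edgeR (log2 fold change -2.91). The early progenitor-like share changed sign at Leiden resolution 2 (2.19 points) and without the low-UMI cluster (0.513), the mature monocyte or macrophage-like share at resolution 2 (0.0680) and the plasma cell-like share without that cluster (0.00370). Leaving out a replicate gave -2.71 to 1.47 points for early progenitor-like, -3.54 to 0.122 for maturing neutrophil-like, -0.138 to 0.0474 for mature monocyte or macrophage-like, -0.950 to 0.158 for basophil/mast progenitor-like and -0.0388 to 0.0327 for plasma cell-like cells.

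Counts of called genes depended strongly on the fit. Over all cells DESeq2 called 499 and the fit of the 6 libraries alone 116, and leaving out a replicate gave 6 to 99. With DESeq2 the early progenitor-like, granulocyte, monocyte and erythroid progenitor-like classes had 211, 35, 29 and 6. With the 6 libraries alone, counts were 141 (HSC/MPP-like), 228 (early progenitor-like), 57 (granulocyte), 49 (monocyte), 98 (megakaryocyte), 13 (erythroid) and 18 (basophil/mast progenitor-like). Without the low-count filter they were 242, 209, 43, 40, 223, 4 and 90 in the same order, and 15, 58 and 5 in maturing neutrophil-like, mature monocyte or macrophage-like and mature B-like cells. Keeping doublets gave 1 call in maturing neutrophil-like cells. Leaving out a replicate gave 9 to 93, 19 to 122, 10 to 17, 6 to 14, 3 to 26, 0 to 1 and 2 to 9 in the 7 classes with calls. In these fits the spread was estimated from all libraries kept, including the 2 mice left in a group.

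The replicate block, run because groups share replicate numbers, gave 34 calls over all cells, 59 in HSC/MPP-like and 18 in mature B-like cells. Deviations from the group mean over all cells correlated at 0.247, -0.455 and 0.0537 between same-numbered mice. Between differently numbered mice they ran from -0.501 to 0.484. With 3 mice a group these values cannot tell whether the numbers pair them. Of 72 named results that were called, 22 stayed called in all alternatives, and none changed direction. The HSC/MPP-like sums of the receptor-knockout mice rest on 40 to 84 cells.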

Other observations

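Of 31 cytokine receptor genes tested over all cells, 8 were higher and 2 lower in every receptor-knockout mouse than in every control, against 8.93% and 13.1% of all genes, with none called in edgeR (6 higher and 2 lower at an unadjusted p below 0.05, 3 higher and 1 lower in DESeq2). Kit, the receptor used in the sort, and Csf3r, the receptor of granulocyte colony-stimulating factor, overlapped between groups (edgeR adjusted p = 0.757 and 0.813). Bcl2, which protects cells from death, had 60.1, 46.0 and 57.8 CPM against 71.7, 68.7 and 71.2 CPM without overlap (adjusted p = 0.477), 1 of 6 of the 18 tested BCL2 family genes that were higher in this way, against 8.93% of all genes.

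The dendritic cell marker Cox6a2, a cytochrome oxidase subunit gene, was called higher over all cells (1.48, 0.890 and 1.34 CPM against 3.97, 3.06 and 4.15 CPM, adjusted p = 0.0129), the called gene among 11 tested dendritic cell markers, against 0.0831% of all genes called higher. Their summed level overlapped between groups, at 224 to 244 CPM and 216 to 233 CPM. Genes of nuclear oxidative phosphorylation subunits had a median of 0.20 over 52 tested, 8 of them higher without overlap, against 8.93% of all genes, and none called in edgeR (1 at an unadjusted p below 0.05, 0 in DESeq2). Genes shown beside their values here were chosen after those were seen.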
